A study of Abies pinsapo with 12 samples.

Results

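The transcripts described here are 5 of the 76481 counted in needles of Spanish fir (Abies pinsapo), and all belong by annotation to the metabolism and transport of nitrogen or small solutes. They were annotated as asparagine synthetase (ap_14760), aspartate aminotransferase (ap_91455), glutamate decarboxylase (ap_22265), allantoin permease (ap_17692) and a transporter (ap_34051) that was grouped with the allantoin permeases when the set was chosen. For ap_34051 the study's own annotation gives only a protein with a major facilitator superfamily (MFS) domain, so it is called an MFS transporter below. The members were chosen by their function and by the difference between bluish and green trees, the comparison in which the study had picked them out. Their levels in the colours are therefore given as a description. The fit across all transcripts is quoted for them as logFC, spread, counts and an FDR range, and nothing is supported by it.

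RNA was sequenced from needles of adult, field-grown trees of Sierra de las Nieves (Yunquera, Spain). The trees were sorted by needle colour into 6 bluish and 6 green trees, each sequenced as a single library, and developing needles were avoided because of their pigments. No treatment or genotype was given, so colour was the only labelled difference, and what else differed between the trees cannot be told apart from it. Each library was made from whole needles, in which fewer cells of a type and less RNA per cell cannot be told apart.

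Plants keep and move reduced nitrogen as amino acids, amides and ureides. Asparagine synthetase passes an amide group to aspartate and forms asparagine, a nitrogen store and transport form in conifers, while aspartate aminotransferase makes the aspartate by moving an amino group from glutamate to oxaloacetate. Glutamate decarboxylase turns glutamate into γ-aminobutyrate (GABA) and opens the GABA shunt, which succinate-semialdehyde dehydrogenase closes by returning the carbon to the tricarboxylic acid cycle. Allantoin is a ureide formed when purines are broken down, and allantoin permeases carry it across membranes. MFS proteins are a large family of carriers of small solutes, and the annotation does not give the solute that ap_34051 carries.

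The library totals lay between 66111176 and 79064155 counts in bluish trees and between 64978939 and 91973481 in green trees. Levels are CPM, the counts as a proportion of the library total, with the totals scaled by edgeR's trimmed mean of M-values (TMM) factors, which ranged from 0.947 to 1.04. Because 76% of the counts from 1 to 29 were even, a read pair was taken as 2 counts. The upper limit for a count of 0 was then set at 3 read pairs (6 counts), the floor below, equal to 0.0695 to 0.0908 CPM across the libraries and covering counting error only. The needle label was checked on 2 transcripts of the RuBisCO small subunit with a spruce (Picea) best hit, ap_2598 at 7.7 to 36 CPM and ap_81338 at 5.63 to 24.2 CPM, both present in the 12 trees. A photosystem I subunit, ap_60781, was at 0 in green 6 and at least 1.14 CPM in the other trees. These are chloroplast transcripts, so the check could not tell needles from other green tissue. Libraries of a colour differed from each other far beyond sampling noise, with a chi-square of 38.5 to 108 per degree of freedom, so none was a copy of another.

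All 5 members passed the filter of at least 2 CPM in at least 2 libraries, which kept 23352 transcripts for testing. Asparagine synthetase and aspartate aminotransferase each reached 2 CPM in 2 libraries, all of them bluish. The MFS transporter reached it in 2 libraries, both green, while glutamate decarboxylase and allantoin permease reached it in 4 each. A transcript that passed only through the colour in which it was high was kept for being high there, so passing says nothing about the members. Of the 60 values of the members in the libraries, 41 were above 6 counts and 14 were 0. Among the tested transcripts 98.8% had a count in each library, and only 86 had a 0 in 4 or more.

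Asparagine synthetase had no count in 4 of the 6 green trees and at least 6 counts in every bluish tree. In bluish 1 to 6 its level was 0.811, 3.11, 0.0866, 0.272, 0.0991 and 2.09 CPM, from 54, 232, 6, 18, 8 and 146 counts. In green 1 to 6 it was 0.618, 0, 0, 0.0971, 0 and 0 CPM, from 48 counts in green 1 and 8 in green 4. Bluish 2 and bluish 6 stood high, and green 1 lay above bluish 3, 4 and 5, so the colours overlapped. The bluish mean was 1.08 ± 1.25 CPM and the green mean 0.119 ± 0.248 CPM (SD, n = 6 each), with an SD above the mean in both. A single tree held much of each sum, with bluish 2 giving 48.1% of the bluish and green 1 giving 86.4% of the green level.

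Aspartate aminotransferase, which supplies the aspartate that asparagine synthetase uses, was detected in some trees of each colour and missing in the others. Bluish 1 to 6 had 0, 2.1, 2.38, 0.951, 0.0743 and 0 CPM, from 0, 157, 165, 63, 6 and 0 counts. Green 1 to 6 had 0, 0, 0.151, 0, 1.9 and 0 CPM, from 11 counts in green 3 and 162 in green 5. The transcript was thus present well above the floor in bluish 2, 3 and 4 and in green 5, barely above it in green 3, and at or below it in 7 trees. Green 5 had more than bluish 4, so the colours overlapped over nearly their whole range. Means were 0.918 ± 1.09 CPM in bluish and 0.342 ± 0.765 CPM in green trees (SD, n = 6 each), and green 5 alone made 92.6% of the green sum. Bluish 2 was the only tree above 2 CPM for both this enzyme and asparagine synthetase.

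Glutamate decarboxylase, the first enzyme of the GABA shunt, was the only member above the floor in every bluish tree. Its level was 3.1, 1.57, 1.75, 2.45, 1.81 and 4.48 CPM in bluish 1 to 6, from 117 to 313 counts. In green 1 to 6 it was 2.34, 0, 0, 0.0485, 1.55 and 0.575 CPM, from 182, 0, 0, 4, 132 and 38 counts. All 6 bluish trees lay above the green median of 0.312 CPM, and 3 of them above the highest green tree. Green 1 and green 5 were near the lower bluish trees, green 6 lay between them and the floor, green 4 was under the floor and 2 green trees had no count, so the colours overlapped. The mean was 2.52 ± 1.11 CPM in bluish and 0.752 ± 0.982 CPM in green trees (SD, n = 6 each).

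Allantoin permease ap_17692 was above 0 in all 12 trees but differed between trees of one colour more than between the colours. In bluish 1 to 6 it was at 1.26, 0.201, 0.707, 14.5, 0.57 and 0.0572 CPM, from 84, 15, 49, 962, 46 and 4 counts. In green 1 to 6 it was at 6.97, 0.139, 14, 0.595, 12.8 and 1.57 CPM, from 541, 12, 1023, 49, 1094 and 104 counts. A bluish tree had the highest level of all, 3 green trees followed, and green 2 was lower than 5 of the bluish trees, so the colours overlapped. Bluish 4 held 83.8% of the bluish sum, and the bluish mean of 2.89 ± 5.72 CPM (SD, n = 6) lay far above the bluish median of 0.639 CPM. The green mean was 6.02 ± 6.25 CPM (SD, n = 6) and the green median 4.27 CPM.

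The MFS transporter ap_34051 had a 0 in 1 tree of each colour. Its level was 1.04, 0, 0.202, 0.483, 1.35 and 0.0572 CPM in bluish 1 to 6, from 69, 0, 14, 32, 109 and 4 counts. It was 1.51, 0, 3.54, 0.437, 0.844 and 3.19 CPM in green 1 to 6, from 117, 0, 258, 36, 72 and 211 counts. Green 3 and green 6 stood high, green 1 was just above the highest bluish tree, and the other green trees lay within the bluish range. Means were 0.522 ± 0.556 CPM in bluish and 1.59 ± 1.47 CPM in green trees (SD, n = 6 each).

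**Figure D1:**
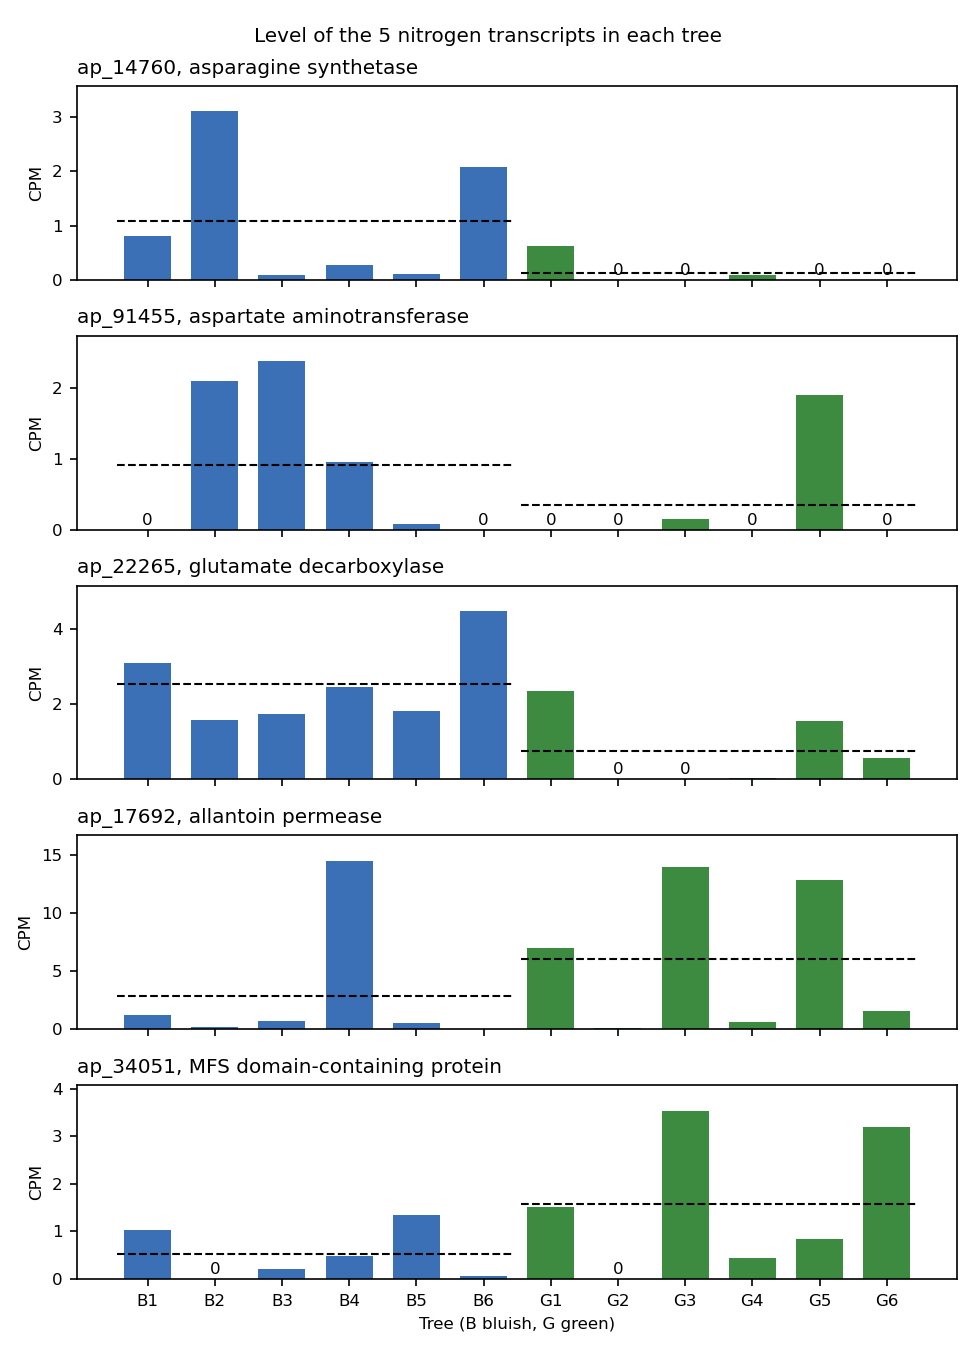
Level of each member in CPM (vertical axis, starting at 0, with its own scale in each panel) in the 12 trees (horizontal axis, B bluish and G green), with dashed lines at the mean of each colour and a 0 printed where no read was counted. Asparagine synthetase was at 0 in 4 green trees, aspartate aminotransferase at 0 in 2 bluish and 4 green trees, and allantoin permease at 14.5 CPM in bluish 4 against at most 1.26 CPM in the other bluish trees.

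In a negative binomial fit to the 23352 transcripts, the 3 enzymes had a positive logFC (log2 of bluish over green) and both transporters a negative one. The logFC was 3.16 (SE 1.37) for asparagine synthetase, 1.41 (SE 1.62) for aspartate aminotransferase and 1.74 (SE 1.03) for glutamate decarboxylase. It was −1.06 (SE 1.22) for allantoin permease and −1.60 (SE 1.11) for the MFS transporter. These values restate the comparison by which the members were chosen. With |logFC| above 1 and a false discovery rate (FDR) under 0.05 by edgeR's quasi-likelihood test, 0 of the 5 members were called, at an FDR of 0.773 to 0.91, and 1 of them had an unadjusted p under 0.05. Over all transcripts 1 of 23352 (0.00428%) was called, and 1478 had an unadjusted p under 0.05. With 1 common dispersion for all transcripts in edgeR's exact test, a fit that gives each transcript the same spread, 453 transcripts were called, all 5 members among them.

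The spread between trees of one colour was much larger in the members than in most transcripts. The biological coefficient of variation (BCV), the relative spread between trees that remains beyond counting error, was 1.65 for asparagine synthetase, 2.35 for aspartate aminotransferase, 1.26 for glutamate decarboxylase, 1.32 for allantoin permease and 1.32 for the MFS transporter. The median over the tested transcripts was 0.207, and the members lay at the percentiles 99 to 99.8. The members come from a comparison in which calls like theirs were made here only with a common dispersion, which favours transcripts with a large spread, so this place was in part set by their choice.

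Single trees moved the logFC of a member without turning its direction. Leaving out 1 tree at a time gave 2.48 (without bluish 2) to 5.64 (without green 1) for asparagine synthetase and 0.86 (without bluish 3) to 4.89 (without green 5) for aspartate aminotransferase. Without green 1 the asparagine synthetase counts left in green trees were 8, all in green 4, and without green 5 the aspartate aminotransferase counts left were 11, all in green 3. For glutamate decarboxylase the range was 1.48 (without green 2) to 2.53 (without green 1). Allantoin permease ranged from −3.43 (without bluish 4) to −0.62 (without green 3) and the MFS transporter from −2.15 (without bluish 5) to −1.19 (without green 3).

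**Figure D2:**
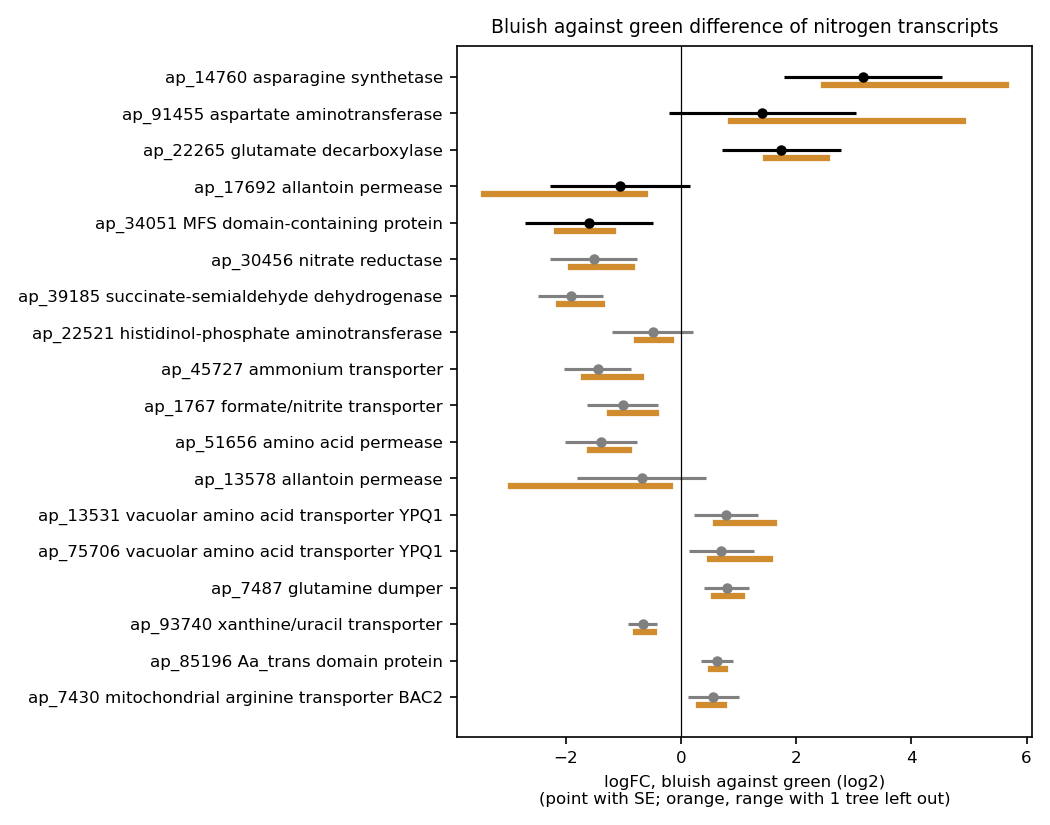
The logFC of bluish against green trees on the log2 scale (horizontal axis) for the 5 members (black) and 13 other nitrogen transcripts (grey), with bars of 1 SE and, in orange, the range when 1 tree was left out in turn. The enzymes lie to the right of 0 and the transporters among the members to the left, and the orange bars are widest for aspartate aminotransferase (0.86 to 4.89), asparagine synthetase (2.48 to 5.64) and the allantoin permeases.

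Whether the members moved together from tree to tree was asked within each colour, where the difference between the colours does not enter. The spread of the members within a colour was still in part set by their choice. Pearson's r and Spearman's rho of log2(CPM + 0.25) were computed for the 10 pairs in each colour, 20 relations in all, over 6 trees each. Exact permutation tests over pairings were two-sided. For rho they allow no p below 0.00278 with 6 trees, and a larger one where trees share a 0. For r the smallest possible p can be lower where no trees share a value. A single rho at a p of 0.00278 would have had an adjusted p of 0.0556 over the 20, so no rho could pass on its own. With 6 trees in a colour and shared zeros, the absence of a call for r or rho does not show that covariation was absent. The adjusted p was at least 0.8 for r and 0.667 for rho. The r ranged from −0.71 to 0.69.

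Among green trees the largest r was that of the transporters, allantoin permease and the MFS transporter, with r = 0.69 (exact permutation p = 0.14, adjusted 0.8) and rho = 0.77 (exact p = 0.103, adjusted 0.889). Green 3 was highest for both and green 2 lowest for both. Without the 2 trees farthest from the median of allantoin permease, green 2 and green 4, r was −0.39, so the relation rests on green 2 and green 4. In bluish trees the same pair had r = 0.41 (exact permutation p = 0.469, adjusted 0.923) and rho = 0.54 (exact p = 0.297, adjusted 0.938), and without bluish 4 and bluish 6 r was 0.70. Bluish 4 was highest for the permease and bluish 5 for the MFS transporter.

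Among the enzymes, aspartate aminotransferase and glutamate decarboxylase ran in opposite directions in bluish trees, with r = −0.71 (exact permutation p = 0.128, adjusted 0.8) and rho = −0.87 (exact p = 0.0333, adjusted 0.667). Bluish 6 and bluish 1 were the highest trees for glutamate decarboxylase and had no aspartate aminotransferase count. Without bluish 2 and bluish 3, the trees farthest from the median of aspartate aminotransferase, r was −0.38, and in green trees the pair had r = 0.39 (exact permutation p = 0.6). Asparagine synthetase and aspartate aminotransferase, successive steps on the way from glutamate to asparagine, had r = −0.08 (exact permutation p = 0.856) in bluish and −0.32 (exact p = 0.567) in green trees. Leaving out the 2 trees farthest from the median in this way gave a value for 13 of the 20 relations, the others having only zeros left in 1 member. It turned the sign of r in 6 of the 13 and moved r in either direction, to between −0.56 and 0.99 over 4 trees, with 0.98 for asparagine synthetase and glutamate decarboxylase (0.33 over all bluish trees) and 0.99 for glutamate decarboxylase and allantoin permease (−0.07). The sign of r was positive in 3 of 10 pairs in bluish and 9 of 10 in green trees, and 6 of the 10 pairs had opposite signs in the colours. The pairs share members and trees, and the difference between the colours was not tested.

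**Figure D3:**
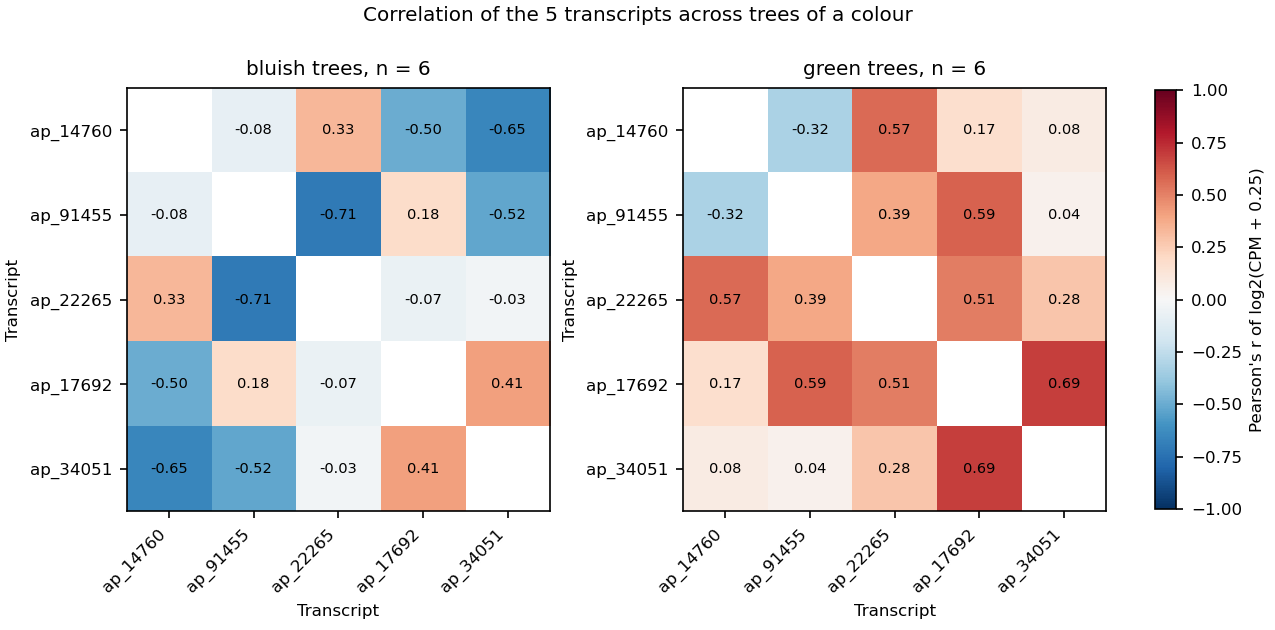
Pearson's r of log2(CPM + 0.25) for each pair of members across 6 bluish trees (left) and 6 green trees (right), on a colour scale from −1 (blue) to 1 (red). The lowest value is −0.71 for aspartate aminotransferase with glutamate decarboxylase in bluish trees and the highest 0.69 for both transporters in green trees.

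The transcripts most like each member over the trees were found by Pearson's r of log2(CPM + 0.25) after the mean of each colour had been subtracted, over 12 trees and against each tested transcript. As the extremes of 23352 values from shared libraries, these r are a description. For allantoin permease ap_17692 the most similar transcript was ap_13578, which the study annotated as an allantoin permease too, with r = 0.996. Its level was highest in bluish 4 (35.7 CPM), green 3 (27.8 CPM) and green 5 (21.7 CPM), the same trees in the same order as for ap_17692. The best database hits differed, sunflower (Helianthus annuus) for ap_17692 and Morella rubra for ap_13578, and neither was a conifer.

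If the assembly holds near-identical copies, the counting could split the same reads between them, so the separate levels of the permease transcripts are uncertain. Of the counts on both transcripts, ap_17692 held 28.9% in bluish 4 (95% Wilson interval 27.4 to 30.5, of 3324 counts), 33.6% in green 3 (31.9 to 35.3, of 3047) and 37.1% in green 5 (35.4 to 38.9, of 2948). In the other trees the share lay between 13.8% (5.5 to 30.6, of 29 counts in bluish 6) and 34.8% (32.5 to 37.2, of 1553 counts in green 1). The intervals cover counting error only and are too narrow where both reads of a pair were counted. The summed counts spanned 29 to 3324, while the share stayed between 13.8% and 37.1%. The logFC of ap_13578 was −0.68 (SE 1.12), from −2.96 without bluish 4 to −0.19 without green 3, and the same trees set the range of ap_17692. The next transcripts by r with ap_17692 were ap_23028 (0.912) and ap_5200 (0.905), and the lowest was ap_18229 (−0.917). Of these, ap_23028 and ap_5200 varied little, over 59.8 to 72.1 CPM and 32.6 to 43 CPM, against 0.0572 to 14.5 CPM for ap_17692.

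For aspartate aminotransferase the most similar transcript was ap_8453 (r = 0.957) and the most opposite ap_2556 (r = −0.987). The level of ap_8453 was 0.541, 13.5, 23.5, 12.6, 0.322 and 0.515 CPM in bluish 1 to 6 and 0.283, 0.394, 0.577, 0.498, 13.4 and 1.35 CPM in green 1 to 6. It was thus high in bluish 2, 3 and 4 and in green 5, the trees with the most aspartate aminotransferase. The same 4 trees were the lowest for ap_2556, at 30.3, 20.1, 58.1 and 34 CPM in the order given, and the next lowest was green 3 at 1010 CPM. The other trees reached up to 3171 CPM in bluish 6, and green 3 was also the tree with the faint aspartate aminotransferase signal of 0.151 CPM. A hexosyltransferase transcript with an Araucaria best hit, ap_72526 (r = −0.958), which was chosen after its values were seen, was at 0.442, 0.0289, 0.181 and 0.633 CPM in those trees and at 17 to 38 CPM in the others. The next by r were ap_2563 (0.919) and ap_7273 (0.916), which varied little, over 92.5 to 117 CPM and 22.5 to 27 CPM.

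**Figure D4:**
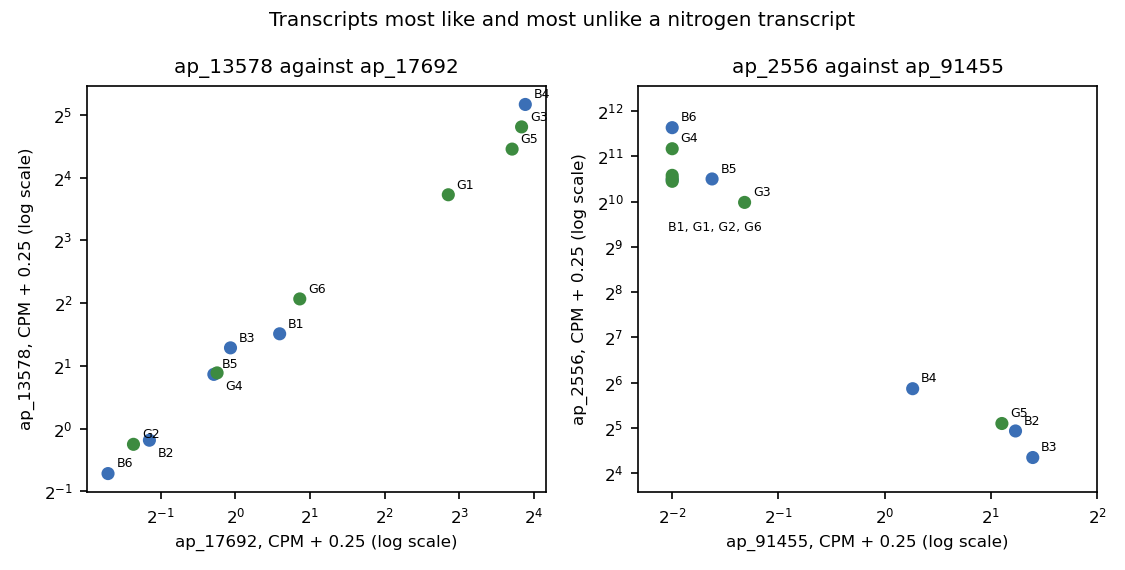
Levels of 12 trees (bluish in blue, green in green) on log scales of CPM + 0.25, for ap_13578 against allantoin permease ap_17692 (left) and ap_2556 against aspartate aminotransferase ap_91455 (right). The permease transcripts lie along a line with r = 0.996, while in the right panel bluish 2, 3 and 4 and green 5 lie apart at 20.1 to 58.1 CPM of ap_2556 and the other trees at 1010 CPM or more.

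Asparagine synthetase was most like ap_83 (r = 0.975), ap_14984 (0.968), which the study listed under the defense response, and ap_14813 (0.967), annotated as a shikimate O-hydroxycinnamoyltransferase, an enzyme of the phenylpropanoid pathway. Each of the 3 was highest in bluish 2, at 5.68, 6.88 and 2.97 CPM. The next highest tree was bluish 6 for ap_83 (3.58 CPM), and green 1 for ap_14984 (4.93 CPM) and ap_14813 (2.42 CPM). Green 1 was the highest green tree for asparagine synthetase as well. The most opposite transcript was ap_93676 (r = −0.933), which stayed between 0.683 and 2.37 CPM.

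Glutamate decarboxylase was most like ap_12847 (r = 0.899), ap_9802 (0.898) and ap_18599 (0.886), a protein with a heavy-metal-associated domain and a spruce best hit. In bluish trees ap_18599 lay between 3.07 and 4.26 CPM. In green 1 to 6 it was at 6.09, 0.208, 0.302, 0.558, 5.15 and 0.394 CPM, and green 1 and green 5 were also the green trees with the most glutamate decarboxylase. The lowest r was that of ap_14748 (−0.920). The MFS transporter was most like ap_14451 (0.919), ap_26175 (0.914) and ap_76359 (0.907) and most opposite to ap_3145 (−0.932). Of these, ap_14451 was highest in green 3 (18.5 CPM) and green 6 (16.7 CPM), the trees highest for the MFS transporter, against 9.96 CPM in its lowest tree.

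To set the members beside their pathway, 13 other transcripts of nitrogen uptake, amino acid enzymes and nitrogen transport were taken from the annotated transcripts of the study. The list is not independent, because the readable annotation was ordered by the same comparison of the colours. All 13 were tested, and 0 were called in either direction by edgeR's quasi-likelihood test (FDR 0.773 to 0.943). Of the 23352 transcripts tested 1478 had an unadjusted p under 0.05 by that test, and 5 of the 13 did. The logFC was above 0 for 5 and below 0 for 8, with a median of −0.67, against −0.004 over the tested transcripts.

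Succinate-semialdehyde dehydrogenase (ap_39185), by annotation at the other end of the GABA shunt from glutamate decarboxylase, had the opposite sign. Its best database hit was a hornbeam (Carpinus fangiana), and whether the transcript comes from the fir was not tested. It was at 0.286 to 1.19 CPM in the bluish and at 1.44, 3.1, 0.879, 7, 3.66 and 0.59 CPM in green 1 to 6, with a logFC of −1.92 (SE 0.571). Green 2 and green 4, high for this enzyme, had 0 and 0.0485 CPM of glutamate decarboxylase, whereas green 5, also high, had 1.55 CPM. Nitrate reductase (ap_30456), the first step of nitrate assimilation, was at 1.06 ± 0.849 CPM in bluish and 3.02 ± 3.15 CPM in green trees (SD, n = 6 each), with a logFC of −1.52 (SE 0.754). Without green 4 the logFC was −1.38 for succinate-semialdehyde dehydrogenase and −0.86 for nitrate reductase.

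For the carriers of inorganic nitrogen, the ammonium transporter ap_45727 and the formate/nitrite transporter ap_1767, the logFC was −1.45 and −1.01, and −0.69 and −0.43 without green 4. The amino acid permease ap_51656 had −1.39 (−0.90 without green 4), the xanthine/uracil transporter ap_93740 had −0.67 and the histidinol-phosphate aminotransferase ap_22521, an enzyme of histidine synthesis, had −0.49, which ranged from −0.77 (without bluish 2 or bluish 3) to −0.17 (without green 3). On the other side were the vacuolar amino acid transporters YPQ1 ap_13531 (0.78) and ap_75706 (0.70), a glutamine dumper protein, ap_7487 (0.79), an amino acid transporter domain protein, ap_85196 (0.62), and the mitochondrial arginine carrier BAC2 ap_7430 (0.56). Without green 2 the YPQ1 transcripts had 1.61 and 1.55, and without bluish 4 the BAC2 carrier had 0.31. None of these passed the test.

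A single green tree stood out in this list and not in the members, a contrast in part set by how both were chosen. The members were picked on the difference between the colours, and the annotation behind the list was ordered by it. How many of all tested transcripts were highest in green 4 was not counted. Green 4 was the highest tree for 6 of the 13 transcripts, and for nitrate reductase, succinate-semialdehyde dehydrogenase, the ammonium transporter, the formate/nitrite transporter and the amino acid permease green 5 came next. Their levels in green 4 were 8.51, 7, 20.7, 6.69 and 4.02 CPM, and in green 5 they were 5.07, 3.66, 7.93, 3.09 and 2.09 CPM. For the members the highest trees were bluish 2 (asparagine synthetase), bluish 3 (aspartate aminotransferase), bluish 6 (glutamate decarboxylase), bluish 4 (allantoin permease) and green 3 (MFS transporter).

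Of 3 lists of transcripts whose best database hit was another organism, 2 were highest in green 4 and 1 in green 5. The summed level of 15 transcripts with a green alga hit was 20.6 to 46.8 CPM in the bluish trees, against 42.1, 55.1, 53.9, 206, 74 and 36.9 CPM in green 1 to 6. That of 58 transcripts with a hornbeam (Carpinus fangiana) hit was 46 to 138 CPM in the bluish and 57.8 to 545 CPM in the green trees, highest in green 4 (545 CPM) and green 5 (265 CPM). That of 31 transcripts with an Anthurium amnicola hit was 84.6 to 145 CPM in bluish and 92.3 to 239 CPM in green trees, highest in green 5 (239 CPM) and green 2 (228 CPM), with 180 CPM in green 4. The lists were drawn from the readable annotation, which was ordered by the comparison of the colours. The study had listed 12, 47 and 16 of these transcripts as higher in green trees, so higher sums there were in part set by the choice. The formate/nitrite transporter belonged to the alga list, succinate-semialdehyde dehydrogenase to the hornbeam list and the ammonium transporter to the Anthurium list. In green 4 the members were at 0.0971, 0, 0.0485, 0.595 and 0.437 CPM in the order of the first paragraph. Bluish 4, with the most allantoin permease, had 38.5 CPM of the alga list and 115 CPM of the hornbeam list. It had 145 CPM of the Anthurium list, the highest value among bluish trees. The part of these organisms in the levels of the members and of the other nitrogen transcripts was not tested.

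**Figure D5:**
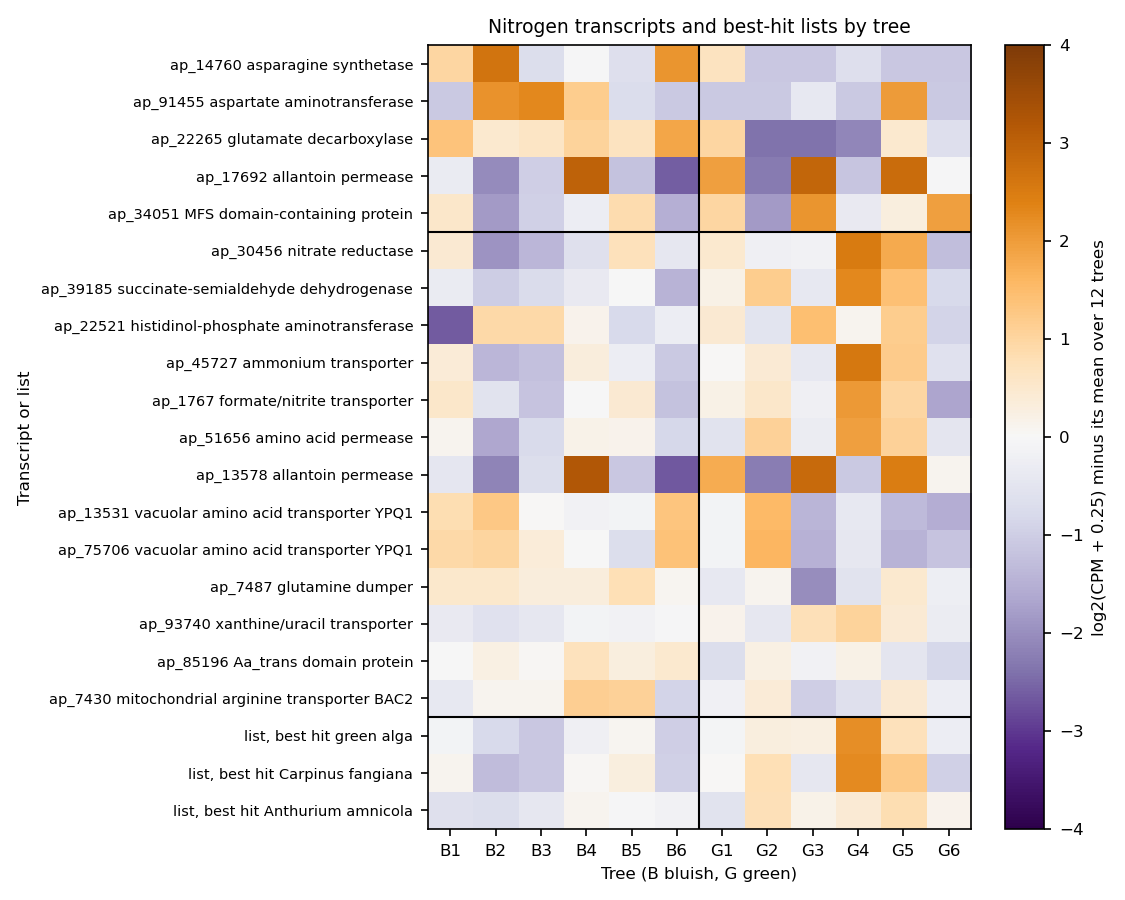
Log2(CPM + 0.25) minus its mean over 12 trees (colour scale, orange high and violet low) for the 5 members (top), the 13 other nitrogen transcripts (middle) and the summed best-hit lists (bottom), with trees as columns. Green 4 is the highest tree of 6 transcripts of the middle block and of the alga and hornbeam lists (206 and 545 CPM), and of none of the members.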

How the data were processed

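Needle RNA of 12 trees was analysed, 1 library per tree, with colour and tree number taken from the labels. The extraction text given with the samples speaks of pine roots, whereas the labels and the study give needles, the tissue assumed here. The deposited values were raw counts of reads per assembled transcript, made by the authors by mapping read pairs to their assembly with BWA (bcl2fastq is also named in the processing notes, without versions) and counting per transcript. All 12 count columns were mapped to a tree and 0 other columns were left.

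The test was run on transcripts that reached 2 CPM in 2 or more libraries (98.7% to 99.3% of each library's counts). Scaling (TMM), dispersions and the quasi-likelihood test, with colour as the only term, were taken from edgeR (version 4.0.16; limma 3.58.1, R 4.3.3), with Benjamini-Hochberg adjustment over all transcripts tested. SEs were obtained as |logFC| over the root of the F statistic. Exact permutation tests went through all pairings in Python 3.11.15 with numpy 2.4.6 and pandas 2.3.3, with ranks from scipy 1.17.1. Plots used matplotlib 3.10.9. The scripts were tested on simulated data. Alternatives tried were the exact test of edgeR (common or transcript-wise dispersion), the likelihood ratio test, DESeq2 1.42.0, other scalings and filters, the tree number as a block, each tree left out, Spearman's rho and log2(CPM + 1).

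The members and lists were chosen with earlier results of these data known. Named were the 5 members, the 13 other nitrogen transcripts and, for each member, the 3 tested transcripts with the highest and the 1 with the lowest r. Any other is marked as picked once its values were known. The sequences of the transcripts, their lengths, RT-qPCR and physiological data were not used here, so no level is given per length. The shares and sums over several transcripts are shares and sums of reads, not of molecules.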

Additional observations from a re-analysis of the deposited data

Results flagged for a closer look

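Of the 10 sets of 6 values of a member in a colour, 3 held a tree whose distance to the nearest other tree took up more of the whole range than Dixon's 95% critical value for 6 values. Chance flags about 1 in 20 such sets where values follow a normal distribution. The values here are skewed, hold up to 4 zeros and belong to transcripts chosen on them, so that rate does not carry over to these sets. Asparagine synthetase was at 0.618 CPM in green 1, a gap of 0.843 of the range. Aspartate aminotransferase was at 1.9 CPM in green 5, a gap of 0.921 of the range. Allantoin permease ap_17692 was at 14.5 CPM in bluish 4, a gap of 0.917 of the range.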

How the results depend on the processing

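The number of transcripts called, 1 by the quasi-likelihood test, was 453 by the exact test with a common dispersion, 23 with a transcript-wise dispersion, 15 by the likelihood ratio test, 22 by DESeq2, 3 after filterByExpr, and 1 to 2 when 1 tree was left out (2 without bluish 4 or green 6). With the tree number as a replicate block it was 0. The numbers did not pair the trees, since same-numbered trees had a correlation of −0.158 to 0.116 and 1 of 6 numbers was matched best by its own. The common dispersion called all 5 members, with a logFC of 3.16, 1.39, 1.74, −1.06 and −1.59 in the order of the report. It also called 5 of the 13 other nitrogen transcripts, against 453 of all 23352 tested, and the 13 came from annotation ordered by the colours. None of the other alternatives called a member or one of the 13, and none turned a direction. When a tree was left out, the filter dropped asparagine synthetase without bluish 2 or 6, aspartate aminotransferase without bluish 2 or 3 and the MFS transporter without green 3 or 6, and filterByExpr tested only 3 members. The ranges in the report, for the members and the 13 others, therefore kept the full set of transcripts, a choice made after seeing the data. The number of correlations that passed was 0 under each alternative, and with Spearman's rho a single one could not have passed. Of the 15 most similar transcripts, 7 were found again with Spearman's rho and 9 with log2(CPM + 1). Of the 60 values of the members, 41 were above 6 counts.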
